A study of Mus musculus with 6 samples.

Results

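Adventitial fibroblasts were defined here as lung barcodes that carried at least 4 of the 7 genes *Serpinf1*, *Scara5*, *Clec3b*, *Pi16*, *Dcn*, *Htra3*, and *Col14a1* and few genes of other lung cells. At most 2 of 5 endothelial genes, 1 of 3 cartilage genes, 2 of 4 mesothelial genes, and 1 of the 3 alveolar fibroblast genes *Tcf21*, *Npnt*, and *Col13a1* were allowed. Members were thus chosen by the measured presence or absence of these genes. The rule was met by 783 of 38208 barcodes that passed filters of 500 genes or more and no more than 10% mitochondrial unique molecular identifiers (UMIs, which count RNA molecules), 193 from WT and 590 from TNF-Tg lungs. The study followed pulmonary hypertension in TNF-Tg mice, which carry a human TNF transgene, beside littermate WT controls, at ages of 8, 14, and 20 weeks. Live lung cells of female mice negative for CD45 and CD326 were sorted for droplet-based scRNA-seq, so leukocytes and epithelial cells were meant to be depleted. Lungs were pooled within each genotype and age, and 1 library was made from each pool, which gives 6 libraries, 3 per genotype. The ages of a genotype serve as its replicates in every test, so the spread between replicates includes change with age. Levels are CPM, UMIs of a gene scaled to the total of the member cells of a library. Mouse *Tnf* had between 0 and 1.44 CPM in the libraries, and these counts do not read a human transgene.

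Adventitial fibroblasts lie in the loose connective tissue cuffs around large vessels and airways. They secrete decorin, type XIV collagen, and other matrix proteins, and they are known as a source of complement proteins, chemokines, and growth factors for the vessel wall and the immune cells beside it. TNF signals through its receptors to the transcription factor NF-κB, which is held inactive by inhibitor proteins such as the product of *Nfkbia*, itself an NF-κB target gene. BMP and hedgehog ligands are pathways through which epithelial, vascular, and stromal cells of the lung signal to each other, and reduced BMP signaling is a known feature of pulmonary hypertension.

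Promoters of a pair of genes that changed in opposite directions are shown here because both hold the letters of an NF-κB-like motif, which is GGG, 2 free bases, TT, a free base, and CC, on either strand. Sequences are from RefSeq on GRCm38.p6, 5′ to 3′ on the strand of the gene, with 250 bases before the annotated start and 50 after it, and capitals mark the motif. The *Nfkbia* promoter lies at chr12:55492598-55492897 on the minus strand, with the motif on the opposite strand 29 bases before the start. The *Serpina3n* promoter lies at chr12:104406458-104406757 on the plus strand, with the motif 171 bases before the start.
Nfkbia: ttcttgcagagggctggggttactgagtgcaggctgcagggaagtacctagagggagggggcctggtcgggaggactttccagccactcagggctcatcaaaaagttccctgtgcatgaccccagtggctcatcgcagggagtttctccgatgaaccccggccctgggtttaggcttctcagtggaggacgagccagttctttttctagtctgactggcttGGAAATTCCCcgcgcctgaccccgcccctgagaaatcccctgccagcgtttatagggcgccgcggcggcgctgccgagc
Serpina3n: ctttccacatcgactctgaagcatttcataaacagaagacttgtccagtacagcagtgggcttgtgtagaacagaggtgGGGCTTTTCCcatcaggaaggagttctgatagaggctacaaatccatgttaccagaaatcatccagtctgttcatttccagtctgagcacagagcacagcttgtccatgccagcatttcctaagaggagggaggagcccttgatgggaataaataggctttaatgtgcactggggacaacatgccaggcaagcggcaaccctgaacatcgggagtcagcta
Of all 32851 promoters in the table, 4.79% held the motif. Among genes that rose in TNF-Tg adventitial fibroblasts, 9 matched to 10 promoters, and 1 of these held it, that of *Nfkbia*. Among genes that fell, 43 matched to 49 promoters, and 6 held it, those of *Bmp4*, *Fancc*, *Gadd45g*, *Hoxa7*, *Lepr*, and *Serpina3n*. A match describes letters in a window and is no evidence of binding.

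The adventitial fibroblasts carried their defining genes at levels that overlapped between genotypes, which is given as a description because these genes chose the cells. *Dcn*, which encodes decorin, ranged from 11406 to 12980 CPM in the WT libraries and from 11296 to 11934 CPM in the TNF-Tg libraries. *Col14a1* had 1063 to 1259 CPM in WT against 872 to 1313 CPM in TNF-Tg. *Pi16*, a marker of a fibroblast pool shared by many tissues, had 1634 to 2663 CPM in WT against 1401 to 2281 CPM in TNF-Tg. The ranges of all 7 defining genes overlapped between genotypes, but none of the 7 had a higher mean in TNF-Tg. *Clec3b*, *Scara5*, and *Htra3* were lower in TNF-Tg at each age. *Clec3b* had 2639 to 3012 CPM in WT against 1773 to 2758 CPM in TNF-Tg. At the limit of the rule, 87 members carried 4 of the 7 genes, and 133 barcodes that met every other condition carried 3. Of 26 further adventitial genes that the rule did not use, all 26 were tested between genotypes as described further on, and none was called in either direction, where 0.734% of all genes tested were called. With age as a block in the model, 1 of them, *Ackr3*, was called higher (edgeR FDR = 0.0444), where 1.59% of all genes tested were called.

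Summed levels of several marker lists of other cells moved with genotype in the members. That of 6 endothelial markers, 5 of which the rule used to leave cells out so that their level was set by the selection, was 44.7 to 80.6 CPM in WT against 35.5 to 89.0 CPM in TNF-Tg members, against 4377 CPM or more in the other barcodes of each library. The summed level of 6 smooth muscle markers was 95.1 to 317 CPM in WT against 472 to 551 CPM in TNF-Tg members, and all 6 of those markers had a higher mean in TNF-Tg. The summed level of 6 pericyte markers was 222 to 425 CPM in WT against 528 to 726 CPM in TNF-Tg, where the other barcodes had 198 to 379 CPM in TNF-Tg. The matrix gene *Postn*, which fibroblasts also express, made up 205 to 357 CPM of it in WT and 468 to 680 CPM in TNF-Tg. The pericyte gene *Higd1b* was at 0 in all libraries but the 14-week WT one, at 1.44 CPM. Of the 6 pericyte markers, 4 had a higher mean in TNF-Tg. All 3 that were tested had a positive difference, and 2 of these did not overlap between genotypes. Among them, *Cox4i2* had a mean of 4.94 CPM in WT against 15.19 CPM in TNF-Tg, without overlap, and was not called (edgeR FDR = 0.268). The part of pericyte RNA in this sum was not tested. The summed level of 5 cartilage markers, 3 of them used by the rule, was 0 to 2.88 CPM in WT against 2.76, 57.1, and 79.6 CPM in TNF-Tg, with *Acan* and *Snorc* at 0 in all libraries. *Chad* made up 34.4 CPM of the 14-week TNF-Tg sum. In the 20-week TNF-Tg library 4 of the 5 genes were at 0, and *Cytl1* alone made up the sum. *Cytl1* is a leading gene of 1 cluster of members described further on, at 251 CPM against 0.754 CPM in the others. The summed level of 8 alveolar fibroblast markers went the other way, at 1248 to 1876 CPM in WT against 591 to 725 CPM in TNF-Tg, and *Inmt* alone made up 907 to 1506 CPM of it in WT and 263 to 385 CPM in TNF-Tg. The summed level of 10 leukocyte markers was 1.27 to 6.52 CPM in WT against 3.45 to 88.8 CPM in TNF-Tg. *Ptprc*, which encodes CD45, was at 0 in all 3 WT libraries and at most 1.71 CPM in TNF-Tg. Members held a median of 12202.5 to 13700 UMIs in the WT libraries and 13212 to 16536 in the TNF-Tg libraries, with 2.45% to 2.88% mitochondrial UMIs. Any pair of libraries shared 6 to 24 barcodes among all those listed before filtering, and no member barcode was shared.

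The share of adventitial fibroblasts was higher in TNF-Tg lungs at 14 and 20 weeks than in any WT library. In WT lungs, 78 of 6430 barcodes were members at 8 weeks (1.21%, 95% exact binomial interval 0.960% to 1.51%), 54 of 6051 at 14 weeks (0.892%), and 61 of 6961 at 20 weeks (0.876%). In TNF-Tg lungs, 85 of 6604 were members at 8 weeks (1.29%), 163 of 5817 at 14 weeks (2.80%), and 342 of 6345 at 20 weeks (5.39%). The groups did not overlap, although the 8-week libraries of the genotypes differed by less than their counting intervals. The mean share was 0.994% ± 0.190 (SD, n = 3) in WT and 3.16% ± 2.07 (SD, n = 3) in TNF-Tg. The genotypes differed by 2.17 percentage points (2-sided exact permutation p = 0.1, the smallest this design allows). Intervals cover counting error only. Without the 20-week TNF-Tg library the difference was 1.05 points. Of barcodes with enough defining genes, the alveolar gene limit left out 47, 52, and 34 in WT at 8, 14, and 20 weeks. In TNF-Tg at these ages it left out 31, 29, and 35. Relative to the members of each library, it thus left out more in WT. The endothelial limit left out 13 to 26 in WT and 27 to 38 in TNF-Tg. The mesothelial limit left out 6 to 8 in WT and 13 to 60 in TNF-Tg. The part of these limits in the difference in share was not tested.

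Endothelial cells are the bulk of these libraries, and a share of all barcodes moves with their number. Of barcodes with at most 2 endothelial genes, members made up 7.14%, 7.33%, and 7.47% in WT at 8, 14, and 20 weeks. In TNF-Tg they made up 14.4%, 15.4%, and 15.3%. On this denominator, the difference was already present at 8 weeks and varied little with age, at a mean of 7.70 percentage points (2-sided exact permutation p = 0.1, n = 3 per genotype). At 8 weeks, 78 WT and 85 TNF-Tg members stood against denominators of 1093 and 591 barcodes. Detection of endothelial genes depends on depth, and barcodes kept had a median of 4455 to 4766 UMIs in WT against 9179 to 9808 in TNF-Tg. The part of depth in this difference was not tested. The sort removes CD45-positive and CD326-positive cells before capture, so none of these shares is a share of the lung.

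**Figure D1:**
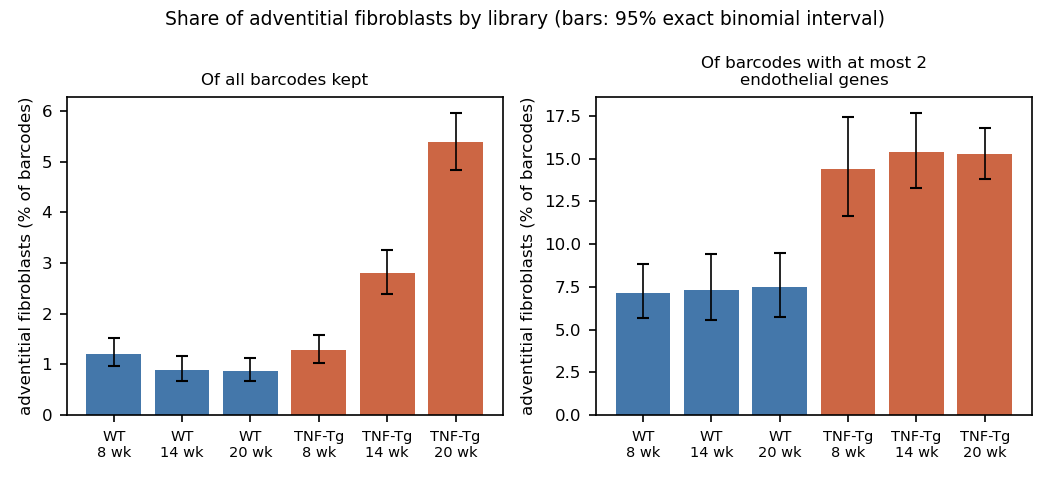
Bars give the share of adventitial fibroblasts in each of the 6 libraries, in percent of all barcodes kept (left) and of barcodes with at most 2 endothelial genes (right), with 95% exact binomial intervals. On the left the TNF-Tg bars climb from 1.29% to 5.39% with age, and on the right all 3 lie between 14.4% and 15.4%.

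The next question was which genes differed between genotypes within the adventitial fibroblasts. UMIs of the members were summed per library and tested between genotypes, 3 libraries against 3, by the quasi-likelihood method of edgeR, with a gene called at a false discovery rate (FDR) under 0.05. Of 9268 genes tested, 68 were called (0.734%). Of these, 14 rose in TNF-Tg (0.151% of genes tested) and 54 fell (0.583%). In all 68, the levels of the genotypes did not overlap, and the direction was the same at each age. Over all genes tested, 14.4% had levels that did not overlap. With age as a block in the model, 147 genes were called (1.59%), 59 higher (0.637%) and 88 lower (0.95%), and all 68 were among them. Leaving out 1 library gave between 14 and 149 called genes, with the fewest without the 14-week TNF-Tg library and the most without the 8-week TNF-Tg library, 41 without the 20-week TNF-Tg library, and 27, 37, and 31 without the 8-, 14-, and 20-week WT libraries.

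*Ptch1* was among the genes that fell most. It encodes the receptor for hedgehog ligands and is itself a hedgehog target gene. From 8 through 14 to 20 weeks, the order used for the values that follow, it had 187, 101, and 139 CPM in WT against 69.7, 42.3, and 19.9 CPM in TNF-Tg, so every TNF-Tg value lay below every WT value. It fell by 1.86 ± 0.37 on the log2 scale (SE, edgeR FDR = 0.0446). The co-receptor gene *Boc* had 61.9 to 102 CPM in WT against 43.2 to 55.9 CPM in TNF-Tg and was called with age as a block only (edgeR FDR = 0.14 without the block and 0.0243 with it). The co-receptor genes *Gas1* and *Cdon* overlapped between genotypes.

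The BMP family genes *Bmp4*, *Bmp5*, and *Gdf10* fell, and no BMP receptor gene of the list passed the test. *Bmp4* had 117, 112, and 142 CPM in WT against 64.1, 75.0, and 73.2 CPM in TNF-Tg (1.79-fold lower, edgeR FDR = 0.0196). *Bmp5* had 21.4, 44.6, and 24.2 CPM in WT against 6.21, 11.8, and 10.5 CPM in TNF-Tg (log2 difference -1.59, edgeR FDR = 0.0466). *Gdf10*, a further member of the family, was 1.61-fold lower (edgeR FDR = 0.0487). All 3 had a level in each TNF-Tg library below that of each WT library. *Bmp2* was not called, at 12.1, 14.4, and 15.3 CPM in WT against 25.5, 46.2, and 23.6 CPM in TNF-Tg (edgeR FDR = 0.21, and 0.0649 with age as a block), higher in TNF-Tg at each age. *Bmp7* overlapped between genotypes, at 5.59 to 20.3 CPM in WT against 4.50 to 15.9 CPM in TNF-Tg (edgeR FDR = 0.788). *Bmpr2*, the type II receptor gene mutated in heritable pulmonary hypertension, had 163 to 184 CPM in WT against 152 to 169 CPM in TNF-Tg (edgeR FDR = 0.883). *Bmpr1a* had 92.2 to 114 CPM in WT against 91.0 to 126 CPM in TNF-Tg (edgeR FDR = 0.999). The BMP target gene *Id3* had 496 to 554 CPM in WT against 479 to 532 CPM in TNF-Tg. *Nog*, which encodes the BMP antagonist noggin, had at most 1.86 CPM in any library and was not tested. Of 34 BMP pathway genes tested, 3 fell and none rose, and the median log2 difference of the 34 was 0.00.

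Other secreted signals and their binding proteins also fell. *Vegfd*, a growth factor for lymphatic vessels, had 105, 147, and 127 CPM in WT against 65.5, 54.1, and 57.6 CPM in TNF-Tg (2.19-fold lower, edgeR FDR = 0.00698). *Igfbp4*, which binds insulin-like growth factors, had 1584, 1590, and 1667 CPM in WT against 974, 944, and 968 CPM in TNF-Tg (1.72-fold lower, edgeR FDR = 0.0122). The levels of *Igfbp4* within each genotype were close together and far apart between genotypes. Of 33 genes tested from a list of growth factors and their binding proteins, these 2 fell and none rose, and with the block *Ntf3* and *Angptl4* were called lower as well. *Aldh1a2*, an enzyme of retinoic acid synthesis, had 72.7, 54.7, and 47.0 CPM in WT against 15.2, 21.8, and 18.8 CPM in TNF-Tg (3.21-fold lower, edgeR FDR = 0.0034). *Meox2*, a homeobox transcription factor, was 3.11-fold lower (edgeR FDR = 0.0034), and it was the 1 gene that fell among 40 genes tested from a list of transcription factors, of which none rose. With the block, *Meox1* and *Foxs1* of that list were called higher and *Nr2f2* and *Prdm6* lower. *Lepr*, the leptin receptor, was 3.06-fold lower (edgeR FDR = 0.00952).

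Among matrix genes, the fibrillar collagens did not pass the test, and individual members of other families changed. *Timp3*, an inhibitor of matrix metalloproteinases that is bound to the matrix, had 2735, 2462, and 2137 CPM in WT against 1136, 1120, and 1252 CPM in TNF-Tg, so the genotypes were far apart. It fell by 1.10 ± 0.14 on the log2 scale (SE, edgeR FDR = 0.0034), and it was the 1 gene that fell among 27 protease and inhibitor genes tested, of which none rose, while *Serpine2* was called higher with the block (edgeR FDR = 0.0111). The proteoglycan gene *Podn* (2.47-fold lower, edgeR FDR = 0.00208) and *Sparcl1* (1.73-fold lower, edgeR FDR = 0.0446) also fell. *Ltbp2*, which encodes a microfibril protein related to the proteins that bind latent TGF-β, had 52.2, 25.9, and 30.5 CPM in WT against 62.8, 164, and 217 CPM in TNF-Tg (3.90-fold higher, edgeR FDR = 0.045). Its TNF-Tg level at 8 weeks was just above the highest WT value. *Col8a1*, a short-chain collagen of vessel walls, had 105, 83.5, and 118 CPM in WT against 199, 174, and 208 CPM in TNF-Tg (1.84-fold higher, edgeR FDR = 0.0292). Of 20 genes tested from a list of collagens, *Col8a1* rose and none fell. *Col1a1* varied more with age than with genotype, at 4169, 1799, and 2642 CPM in WT against 5559, 2274, and 2134 CPM in TNF-Tg (edgeR FDR = 0.941). *Col5a2* was called with age as a block only (edgeR FDR = 0.513 without the block and 0.0379 with it). Of 43 matrix glycoprotein genes tested, 1 rose and 2 fell.

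A further 6 of the named genes fell by 2.86-fold or more. *Pltp*, which encodes phospholipid transfer protein, had 251, 317, and 196 CPM in WT against 93.8, 51.9, and 51.8 CPM in TNF-Tg (4.04-fold lower, edgeR FDR = 0.0034). *Inmt*, a methyltransferase for small amines, had 907, 1506, and 1031 CPM in WT against 263, 306, and 385 CPM in TNF-Tg (3.68-fold lower, edgeR FDR = 0.00208). *Inmt* is also a marker of alveolar fibroblasts. Of the alveolar genes that the rule limited, *Tcf21* had 153 to 172 CPM in WT against 126 to 171 CPM in TNF-Tg members, and *Npnt* and *Col13a1* had at most 3.92 CPM. The part of alveolar fibroblast RNA in the *Inmt* level was not tested. *Nkain4*, *Tspan11*, *Sult5a1*, and *Gpnmb* were 2.86- to 3.34-fold lower. None of these 6 genes overlapped between genotypes.

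**Figure D2:**
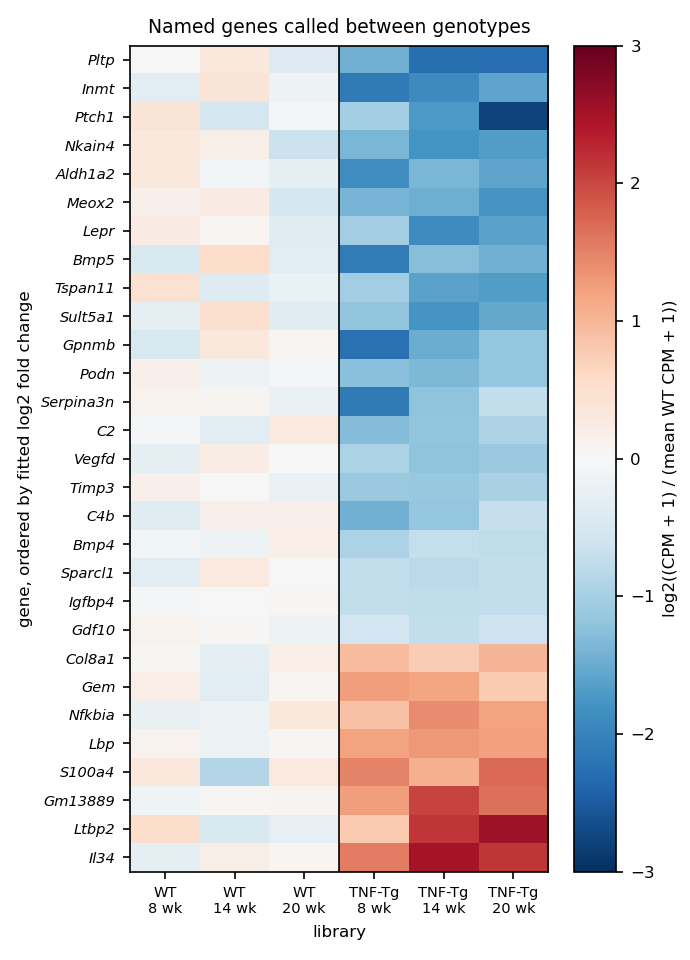
Colors give the level of each named gene called between genotypes in each library, as log2 of (CPM + 1) over (mean WT CPM + 1), with genes in rows ordered by fold change and the 3 WT libraries left of the line. The 21 genes that fell are blue and the 8 that rose are red in all 3 TNF-Tg libraries, with *Ptch1* lowest at 20 weeks.

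Inflammatory genes moved in both directions. *Nfkbia*, at chr12:55489410-55492647 and with its promoter shown above, had 107, 114, and 158 CPM in WT against 231, 338, and 291 CPM in TNF-Tg. It rose by 1.15 ± 0.18 on the log2 scale (SE, 2.22-fold, edgeR FDR = 0.0122), and all TNF-Tg values lay above all WT values. *Nfkbia* was the 1 gene called among 22 NF-κB target genes tested, with a median log2 difference of 0.70 over the 22 genes against 0.00 over all genes tested, and 20 of the 22 had a positive difference. With age as a block, *Tnfaip3*, *Nfkbie*, and *Tnip1*, which encode further inhibitors of NF-κB signaling, were called higher as well. *Lbp*, which encodes the carrier of bacterial lipopolysaccharide, had 52.2, 43.2, and 49.6 CPM in WT against 112, 121, and 114 CPM in TNF-Tg (2.32-fold higher, edgeR FDR = 0.0034). *Il34*, a ligand of the receptor for colony-stimulating factor 1, had 1.86, 2.88, and 2.54 CPM in WT against 8.97, 18.3, and 14.1 CPM in TNF-Tg (5.73-fold higher, edgeR FDR = 0.0387). These WT levels rest on 2 UMIs in each library, against 13, 42, and 66 UMIs in TNF-Tg. *Il34* was the 1 gene called among 17 chemokine and cytokine genes tested, and with the block *Cxcl5* and *Cxcl16* were called higher as well. *S100a4*, a calcium-binding protein of motile cells, was 2.63-fold higher (edgeR FDR = 0.0402), and *Gem*, a small GTPase, was 2.04-fold higher (edgeR FDR = 0.0293).

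Of 18 genes tested from a list of complement and acute-phase genes, 15 were not called without the age block. The called genes of the list either fell or were called higher only with age as a block. *Lbp*, which was called higher without the block, was not on this list. *C4b* and *C2* encode the proteins that form the classical pathway's C3 convertase. *C4b* had 394, 569, and 571 CPM in WT against 187, 229, and 315 CPM in TNF-Tg (2.13-fold lower, edgeR FDR = 0.0293). *C2* had 72.7, 59.0, and 91.5 CPM in WT against 29.7, 32.3, and 39.0 CPM in TNF-Tg (2.23-fold lower, edgeR FDR = 0.0176). *Serpina3n*, at chr12:104406729-104414329, encodes an acute-phase protease inhibitor and had 268, 265, and 216 CPM in WT against 56.6, 107, and 149 CPM in TNF-Tg (2.40-fold lower, edgeR FDR = 0.0446). Its TNF-Tg level was highest at 20 weeks and stayed under the lowest WT level. *C3*, on which the complement pathways converge, had 1778, 3404, and 2506 CPM in WT against 3480, 6615, and 6261 CPM in TNF-Tg, about as far apart at each age. *C3* was not called without the block (2.07-fold higher, edgeR FDR = 0.0975) and was called with it (edgeR FDR = 0.000692). *Saa3*, an acute-phase serum amyloid, had 0.932, 0, and 3.81 CPM in WT against 16.6, 64.1, and 650 CPM in TNF-Tg (edgeR FDR = 0.0918, and 4.71e-08 with the block). *Hp*, which encodes haptoglobin, overlapped between genotypes, at 0.932, 21.6, and 3.81 CPM in WT against 4.14, 121, and 176 CPM in TNF-Tg (edgeR FDR = 0.189, and 0.00014 with the block). Of 18 genes of this list tested, 3 fell and none rose, and with the block 3 were lower and 3 higher.

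The TNF receptors and several downstream lists were not called. *Tnfrsf1a* had 94.1 to 123 CPM in WT against 117 to 119 CPM in TNF-Tg, and *Tnfrsf1b* had 17.8 to 25.9 CPM in WT against 20.7 to 29.2 CPM in TNF-Tg. None of 19 TNF receptor pathway genes, 25 interferon-induced genes, or 22 immediate-early genes tested was called, where the immediate-early genes are those known to respond to tissue dissociation. Of all genes tested, 0.734% were called, or 1.59% with age as a block, so lists of this size would hold few calls. The log2 difference was positive for 11 of the 19 genes (median 0.08), 17 of the 25 (0.24), and 11 of the 22 (0.01). Its median over all genes tested was 0.00. With age as a block, the interferon-induced gene *Zbp1* was called higher (2.80 to 5.76 CPM in WT against 11.8 to 22.8 CPM in TNF-Tg, edgeR FDR = 0.028), and the immediate-early gene *Btg2* was called lower (109 to 145 CPM in WT against 36.0 to 99.3 CPM in TNF-Tg, edgeR FDR = 0.00812). Of 18 antigen presentation genes, none was called without the block, and 6 were called with it, all higher, namely *Cd74* and the class I genes *H2-K1*, *H2-D1*, *H2-Q4*, *H2-Q6*, and *H2-Q7*. The log2 difference was positive for 16 of the 18 (median 0.45). Levels of 8 of them did not overlap between genotypes, where this held for 14.4% of all genes tested. The class I genes are near-identical copies in part, and reads can be split among them. Among them, *H2-K1*, a class I heavy chain, had 241, 429, and 448 CPM in WT against 556, 779, and 632 CPM in TNF-Tg (edgeR FDR = 0.159, and 0.00812 with the block). Of 12 contractile genes, none was called without the block, and 10 had a positive log2 difference (median 0.42). *Acta2* had 25.2, 51.8, and 140 CPM in WT against 179, 229, and 200 CPM in TNF-Tg (edgeR FDR = 0.16, and 0.00961 with the block), and *Tagln* had 44.6 to 140 CPM in WT against 202 to 248 CPM in TNF-Tg (edgeR FDR = 0.0545, and 0.000987 with the block). Of 26 TGF-β pathway genes, *Ltbp2* rose and none fell, and none of 29 Wnt pathway genes or 10 lymphoid stroma genes was called. With the block, the Wnt receptor gene *Fzd4* was called lower (edgeR FDR = 0.00915) and *Rspo3*, which encodes an enhancer of Wnt signaling, higher (edgeR FDR = 0.0205). *Cxcl13*, a B cell chemokine of the lymphoid stroma list, varied among libraries of both genotypes, at 0, 786, and 76.3 CPM in WT against 19.3, 289, and 418 CPM in TNF-Tg.

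The members were not uniform. Clustering without the 22 genes of the rule and without genes called between genotypes with or without the age block, 169 genes in all, gave 8 clusters of 64 to 151 cells. They are named here by their 2 leading genes and carry no cell type names. A cluster led by *Smpd3* and *Pla1a*, with 147 cells, had *Igfbp5* at 2291 CPM against 263 CPM in the other members and also *Dpp4* and *Anxa3* high. The Thbs4/Ptn cluster had *Thbs4* at 1310 CPM against 31.3 CPM in the others, with the matrix genes *Tnc* and *Cilp* also high. In the Tbx20/Cytl1 cluster, *Tbx20*, a transcription factor of heart development, was at 482 CPM against 3.99 CPM. The Aqp1/Adh7 cluster carried *Lrat*, *Hhip*, and *Tbx4*. In the Dkk2/Nkx6-1 cluster, the Wnt antagonist gene *Dkk2* was at 759 CPM against 15.9 CPM. The Car3/Cxcl13 cluster had *Car3*, a carbonic anhydrase, at 291 CPM against 0.10 CPM and *Cxcl13* at 2290 CPM. A cluster led by the proliferation genes *Mki67* and *Cenpf*, with 65 cells, also had the smooth muscle gene *Myh11* at 137 CPM against 11.1 CPM. Its 10 WT cells held no UMI of *Mki67*, and its 55 TNF-Tg cells held 125. A cluster of 151 cells led by *Mmp3*, a matrix metalloproteinase, and *Myoc* had *Mmp3* at 1007 CPM against 228 CPM.

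The Mmp3/Myoc cluster took a different share of the members in each genotype. It held 43.6%, 48.1%, and 37.7% of WT members and 14.1%, 7.36%, and 12.9% of TNF-Tg members at 8, 14, and 20 weeks, so the genotypes did not overlap. The Dkk2/Nkx6-1 cluster held 1.85% to 7.69% of WT members and 9.82% to 20.0% of TNF-Tg members. The Car3/Cxcl13 cluster held 4.92% to 5.56% of WT and 5.88% to 11.4% of TNF-Tg members. Both rest on few cells. In WT at 8, 14, and 20 weeks, the Dkk2/Nkx6-1 cluster held 6, 1, and 2 cells and the Car3/Cxcl13 cluster 4, 3, and 3. The 8-week TNF-Tg library had 5 cells of the Car3/Cxcl13 cluster. The other 5 clusters overlapped between genotypes. The clusters were drawn from the same cells and the shares were not tested.

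**Figure D3:**
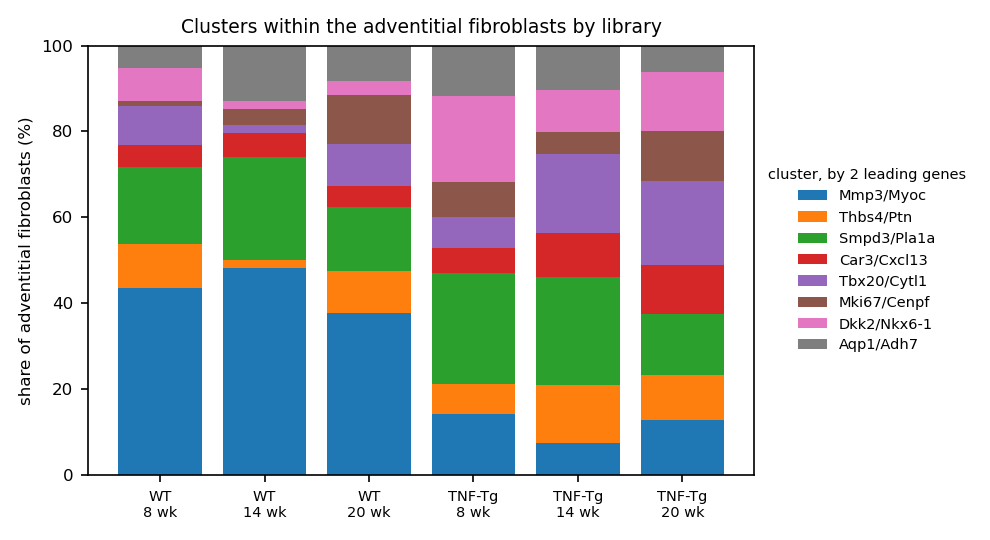
Stacked bars give the share of each of 8 clusters among the adventitial fibroblasts of each library, in percent of its members, which number 54 to 342. The Mmp3/Myoc segment at the bottom spans 37.7% to 48.1% in WT and 7.36% to 14.1% in TNF-Tg.

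The genotype differences were read beside this cluster. Of the 54 genes that fell, 32 had their highest level in the Mmp3/Myoc cluster and 15 in the Aqp1/Adh7 cluster. These levels pool both genotypes, and WT cells made up 83 of 151 cells of the Mmp3/Myoc cluster and 16 of 64 of the Aqp1/Adh7 cluster against 9 of 89 of the Dkk2/Nkx6-1 cluster, which by itself raises genes that are higher in WT in the first of these. When the Mmp3/Myoc cluster was left out, which leaves 110 WT and 522 TNF-Tg members, edgeR called 0 of 8630 genes, with 466 at an unadjusted p under 0.05. The median log2 difference of the genes that fell moved from -1.21 to -0.48, and that of the genes that rose moved from 1.55 to 1.16. Without the cluster, *Serpina3n*, *C2*, *Gpnmb*, and *Aldh1a2* no longer had a lower value in TNF-Tg, while *Nfkbia* had a log2 difference of 1.06 (edgeR FDR = 0.548) and *Bmp4* of -0.88 (edgeR FDR = 0.548). Within the Mmp3/Myoc cluster alone, 80 of 3767 genes were called, 24 higher and 56 lower. There *Pltp* had a log2 difference of -3.19 (edgeR FDR = 3.5e-05), *Igfbp4* of -1.35 (edgeR FDR = 0.00393), *Nfkbia* of 1.41 (edgeR FDR = 0.00945), and *C3* of 0.86 (edgeR FDR = 0.0295).

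Pooled over libraries, *Nfkbia* was higher in TNF-Tg than in WT cells in all 8 clusters, at 171 to 438 CPM against 106 to 199 CPM. *C3* was higher in all 8 clusters as well, at 2998 to 9655 CPM against 1260 to 4051 CPM, and *Bmp4* was lower in all 8. *Meox2* was lower in 7 of 8 clusters, and *Timp3*, *Inmt*, *Ptch1*, and *Podn* were lower in 6 of 8. *Pltp* was lower in 5 and higher in 3, and *Igfbp4* was lower in 4 and higher in 4. *C4b*, which fell over all members, was lower in 3 clusters and higher in 5. *Lbp* and *Ltbp2*, which rose, were higher in 6 and lower in 2. These are sums over cells of all ages and have no test. *Saa3* was concentrated, at 3297 CPM in TNF-Tg cells of the Car3/Cxcl13 cluster and 0 CPM in its 10 WT cells, and at most 198 CPM in TNF-Tg cells of the other clusters. TNF-Tg cells of that cluster also had 319 CPM of *Cd74*, the class II invariant chain, and 66.8 CPM of *C1qa*, a macrophage gene, against 6.63 and 0 CPM in its WT cells. The part of macrophage RNA in the *Saa3* level was not tested.

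Alveolar fibroblasts of the same libraries were used to see whether the differences were particular to the adventitial cells. The rule fixed for them gave 1489 cells, of which 570 carried more than 1 of 4 smooth muscle genes, and in TNF-Tg these made up most of the class. *Acta2* was at 6791 to 10119 CPM in TNF-Tg cells of that class and 1898 to 3231 CPM in WT. A stricter rule, chosen after these values were seen, required *Tcf21* with *Npnt* or *Col13a1* and at most 1 of the 4 smooth muscle genes. It left 324, 167, and 145 WT and 33, 26, and 33 TNF-Tg cells, with *Acta2* at 5.91 to 24.7 CPM in WT against 34.8 to 366 CPM in TNF-Tg. *Tcf21* was still lower in TNF-Tg cells of the stricter class, at 163 to 332 CPM against 829 to 1291 CPM, so the cells compared were not alike in their own markers, and *Tcf21* chose them. *Dcn*, a defining gene of the adventitial cells, was at 55.2 to 269 CPM in WT against 190, 1051, and 660 CPM in TNF-Tg cells of the stricter class, and *Tagln*, a smooth muscle gene, at 186 to 365 CPM against 172, 1264, and 313 CPM. The part of other cells in the differences between classes that follow was not tested. The difference between classes in the genotype effect was tested with library as a block. It passed an edgeR FDR of 0.05 for 1013 of 11577 genes (8.75%, with 4.88% higher and 3.87% lower in adventitial cells) under the fixed rule and for 585 of 9970 genes (5.87%, with 2.22% higher and 3.65% lower) under the stricter one.

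Several complement and acute-phase genes differed between the classes in the direction of the genotype difference. In alveolar fibroblasts under the stricter rule, *C4b* had 127, 148, and 125 CPM in WT against 686, 1116, and 741 CPM in TNF-Tg, higher where *C4b* fell in adventitial cells. The log2 difference of the adventitial cells was 3.72 ± 0.28 below that of the alveolar cells, written -3.72 (SE, edgeR FDR = 2.2e-07). *C2* (-3.77, edgeR FDR = 3.2e-07) and *Serpina3n* (-2.47, edgeR FDR = 2.1e-06) were likewise higher in TNF-Tg alveolar cells of the stricter rule and lower in TNF-Tg adventitial cells. Under the fixed rule, *C4b* and *C2* were also higher in TNF-Tg alveolar cells at each age. *Serpina3n* then had 225, 178, and 114 CPM in WT against 71.5, 119, and 194 CPM in TNF-Tg alveolar cells. Its direction in alveolar cells at 8 and 14 weeks thus depended on the rule. The values that follow are again those of the stricter rule unless the fixed one is named. *C3* was at 492 to 693 CPM in WT alveolar cells and 5911 to 7228 CPM in TNF-Tg alveolar cells, so that both classes had similar TNF-Tg levels from unlike WT levels (-2.41, edgeR FDR = 3e-06). *Nfkbia* was at 110 to 124 CPM in WT alveolar cells and 523 to 587 CPM in TNF-Tg alveolar cells (-1.08, edgeR FDR = 0.0153). *Ltbp2* was at 36.3 to 57.6 CPM in WT against 887 to 2279 CPM in TNF-Tg alveolar cells (-3.32, edgeR FDR = 6.2e-06), but under the fixed rule its difference between classes did not pass (-0.58, edgeR FDR = 0.346). For *Saa3*, the difference between classes did not pass (-2.41 ± 2.05, edgeR FDR = 0.66).

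**Figure D4:**
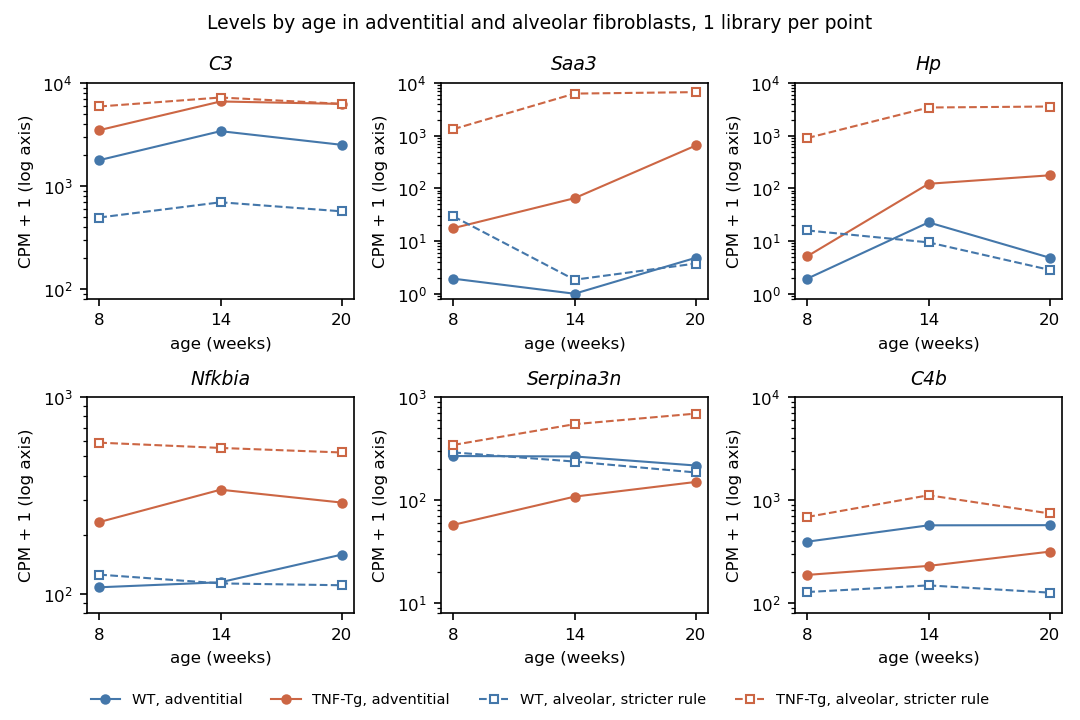
Points give CPM + 1 on a log axis by age for 6 inflammatory genes, with 1 library per point, for adventitial (filled) and alveolar fibroblasts under the stricter rule (open) of WT and TNF-Tg mice. *Serpina3n* and *C4b* are lower in TNF-Tg than in WT adventitial cells and higher in TNF-Tg than in WT alveolar cells at each age.

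For *Timp3* and *Vegfd*, the difference between classes did not pass the test under either rule. For *Bmp4* and *Inmt* it passed under the fixed rule, with a value higher in adventitial cells (1.81, edgeR FDR = 0.00121 for *Bmp4* and 2.35, edgeR FDR = 0.0127 for *Inmt*), and not under the stricter one (0.54, edgeR FDR = 0.406 and 0.72, edgeR FDR = 0.457). *Inmt* had a lower level in TNF-Tg cells of both classes, at 6406 to 7515 CPM in WT against 634 to 2915 CPM in TNF-Tg alveolar cells. For *Pltp*, the direction in alveolar cells depended on the rule. Under the fixed rule it had 46.7, 84.9, and 32.65 CPM in WT against 31.2, 35.6, and 25.2 CPM in TNF-Tg alveolar cells, lower at each age. Its difference between classes was then -1.31 (edgeR FDR = 0.0131). Under the stricter rule *Pltp* was not lower in TNF-Tg alveolar cells, at 44.8 to 101 CPM in WT against 72.3 to 140 CPM in TNF-Tg (-2.57, edgeR FDR = 0.000131). *Id2*, a BMP target gene, was at 11.9 to 21.9 CPM in WT against 123 to 281 CPM in TNF-Tg alveolar cells, while in adventitial cells it had 145 to 226 CPM in WT against 148 to 156 CPM in TNF-Tg (-3.61, edgeR FDR = 6.9e-07).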

How the data were processed

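Each library's matrix was deposited as raw UMI counts per gene and barcode, not normalized. Per the file headers, the authors used Cell Ranger 5.0.0 for the 8-week and 6.0.1 for the other libraries. The submitters' processing notes name mm10. The files list 43545 barcodes and 32285 genes, with 33680696 to 72655387 UMIs per library.

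The rule was applied to every barcode with at least 500 genes and at most 10% mitochondrial UMIs. Doublets stayed in (an alternative removed 35 members). Members were summed per library (694444 to 4671280 UMIs) and tested in edgeR 4.0.16 (R 4.3.3) with its expression filter, TMM scaling, and Benjamini-Hochberg adjustment. Values are CPM of these sums, and fold changes are fitted. DESeq2 1.42.0 was an alternative. Genes of the rule were neither called nor counted. Members were clustered in scanpy 1.11.5 (1500 variable genes, 15 components, resolution 0.6). The scripts were tested on simulated data.

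Libraries of the same age deviated together across genotypes (correlations of deviations from genotype means 0.25, 0.13, and 0.16 at 8, 14, and 20 weeks). Pairs of unlike age had correlations of -0.19 to 0.05, and none of these was tested. The 8-week libraries also shared a Cell Ranger version that the others did not, so age and processing cannot be told apart in that pair. P-values measure the spread between libraries of different ages, since lungs were pooled and no pool was repeated.

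Members and gene lists were chosen with earlier results of these data known. Genes are named by rule: the 10 called genes of largest change in each direction with at least 50 CPM and the same direction at all 3 ages, leading members of each list, genes the study discusses, and the genes of largest difference between classes. Not all of these are described, and 2 genes are not reported here. Cluster genes outside this rule, genes called only with the age block, *Fancc*, *Gadd45g*, *Hoxa7*, and the genes under other observations were named after their values were seen. Coordinates are GENCODE vM21 on GRCm38.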

Additional observations from a re-analysis of the deposited data

Results flagged for a closer look

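For 26 named genes, the genotype difference in adventitial fibroblasts differed from that in alveolar fibroblasts past an edgeR FDR of 0.05 under both rules for the alveolar cells, with the same sign. Among genes named, 29 were called between genotypes and 109 were tested and not called. Of all genes tested, 8.75% passed under the fixed rule and 5.87% under the stricter one, and the share passing both was not computed. Some of the 26, such as *Cilp* and *Cyp1b1*, were named for a large difference in this same test, so their passing was set by the selection. Values are the log2 difference between TNF-Tg and WT in adventitial cells minus that in alveolar cells under the stricter rule. Complement, acute-phase, and NF-κB-related genes had a lower value in adventitial cells, namely *C2* (-3.77), *C3* (-2.41), *C4b* (-3.72), *Serpina3n* (-2.47), *Nfkbia* (-1.08), and *Birc2* (-1.30). So did the chemokine gene *Cxcl12* (-4.66), the BMP target *Id2* (-3.61), and *Gem* (-3.16). *Cxcl12* had 309 to 426 CPM in WT against 170 to 464 CPM in TNF-Tg adventitial cells, which overlap, and had 29.3 to 42.2 CPM in WT and 426 to 1132 CPM in TNF-Tg alveolar cells.

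Matrix, secreted, and adhesion genes with a lower value in adventitial cells were *Cilp* (-7.85), *Fstl1* (-1.41), *Igfbp7* (-1.83), and *Itga2* (-3.27). The tropomyosin gene *Tpm1* (-0.88) and *Pmepa1* (-1.13), which encodes an inhibitor of TGF-β signaling, also had a lower value. *Cyp1b1* (-7.09), *Gpnmb* (-5.54), *Pltp* (-2.57), and *Cst3* (-0.86) were lower too. Genes with a higher value in adventitial cells were *Gsn* (1.44), *Pcolce2* (1.97), *Mettl7a1* (1.37), *Ltbp4* (0.96), *Jund* (0.87), *Slc7a10* (7.13), and *Hbb-bt* (6.21). *Hbb-bt*, a hemoglobin gene, was at 762 CPM in the 8-week WT alveolar sum and at most 10.7 CPM in the other alveolar sums. *Slc7a10* had at most 9.16 CPM in adventitial cells. The TNF-Tg alveolar sums hold 26 to 33 cells each, and the part of smooth muscle or other cells in them was not tested.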

How the results depend on the processing

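The count of called genes, 68, was 70 with DESeq2, 60 with doublets removed, 79 at 5 of 7 defining genes, 70 without members carrying a UMI of *Ptprc*, *Epcam*, or *Myh11*, 51 at equal depth, 59 with upper-quartile factors, and 92 without the Car3/Cxcl13 cluster. It was 38 with cells thinned to 2000 UMIs before the rule, 27 with a filter of 50 CPM in 3 libraries, 333 with no filter on low counts (190 higher, 143 lower), 44 with no scaling factors, 147 with age as a replicate block, and 0 without the Mmp3/Myoc cluster. Leaving out 1 library gave 14 to 149. Apart from the calls given beside their genes and lists, the replicate block by age removed no call among named genes. Of the 29 named genes called, 24 kept their direction under each alternative that tested them, and none kept its call under all of these. *Il34* was tested under 12 alternatives and the others under 17 to 20. Without the Mmp3/Myoc cluster, *Aldh1a2* (0.0108), *C2* (0.51), *Gpnmb* (0.26), and *Serpina3n* (0.23) turned positive. *Gdf10* turned positive in that cluster alone (0.34) and in thinned cells (0.24), and *Cald1*, not called otherwise, was called there (-1.18). The causes were not tested. The 3 fits by cluster and the stricter alveolar rule were chosen after seeing the data.

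The count of genes that differ between classes, 1013, was 1015 with no scaling factors, 180 with thinned cells, 585 under the stricter rule, and 567 under it with no scaling factors. Leaving out 1 library gave 601 to 1354 under the fixed and 334 to 728 under the stricter rule (436 and 362 without the 14- and 20-week TNF-Tg, 343 and 422 without the 8- and 14-week WT library).

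The difference in share, 2.17 percentage points, was 1.73 with thinned cells, 1.89 at 5 of 7 genes, 2.16 with doublets removed, and 1.05 to 3.10 without 1 library. At 1000 genes and 5% mitochondrial UMIs it was 2.53, with overlapping groups (exact permutation p = 0.2). Members of the WT libraries number 54 to 78, which limits genes of low level.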

Other observations

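Further called genes, chosen after their values were seen, included homeobox genes that hold the positional identity of stromal cells. *Hoxb4* had 55.9, 64.8, and 50.9 CPM in WT against 35.2, 32.7, and 34.0 CPM in TNF-Tg (edgeR FDR = 0.0472), and *Hoxb5* (edgeR FDR = 0.0472) and *Hoxa7* (edgeR FDR = 0.0435) were also lower. *Barx1*, a homeobox gene of another family, had at most 2.88 CPM in WT and 8.97 to 12.6 CPM in TNF-Tg (edgeR FDR = 0.0429). *C7*, a late complement component, had 83.0, 74.9, and 80.1 CPM in WT against 38.6, 34.9, and 32.8 CPM in TNF-Tg (edgeR FDR = 0.0034), lower at each age like *C4b* and *C2*. *Hsd11b1*, which activates glucocorticoids inside cells, had 117, 176, and 159 CPM in WT against 53.8, 73.3, and 71.1 CPM in TNF-Tg (edgeR FDR = 0.00698). *Flt3l*, a cytokine for dendritic cell precursors, had 66.2, 90.7, and 69.9 CPM in WT against 35.9, 31.0, and 34.7 CPM in TNF-Tg (edgeR FDR = 0.00698). *Epyc*, a small proteoglycan of cartilage, had 5.09 to 8.64 CPM in WT against 23.4 to 61.0 CPM in TNF-Tg (edgeR FDR = 0.0292). Its highest level was at 14 weeks, where the cartilage gene *Chad* had 34.4 CPM against at most 0.932 CPM in the other libraries, and the part of cartilage cells was not tested. None of these genes was called without the Mmp3/Myoc cluster.

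*Cyp2f2*, a gene of airway club cells, had 0 to 2.80 CPM in WT members against 14.8 to 18.6 CPM in TNF-Tg members (edgeR FDR = 0.0124). The club cell gene *Scgb1a1* had 6.36 to 17.7 CPM in WT and 9.2 to 48.8 CPM in TNF-Tg members, which overlap. Over all other barcodes, *Cyp2f2* had 0.392 to 3.47 CPM in WT and 0.921, 14.0, and 1.14 CPM in the TNF-Tg libraries at 8, 14, and 20 weeks. The part of free epithelial RNA in the *Cyp2f2* level was not tested.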
